A study of Mus musculus with 32 samples.

Results

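The cells described here were 325 hematopoietic cells, out of 17637 cells with at least 2 UMIs of *Tyrobp*, that carried the genes of major histocompatibility complex (MHC) class II in cultures of bone marrow-derived stromal cells grown under osteogenic conditions (BMSC-OBs). A UMI is a unique molecular identifier, so that a UMI count is a count of captured transcripts. *Tyrobp* encodes a signaling adaptor of myeloid and natural killer cells. The cells considered had 400 to 6200 genes detected, no more than 10% of UMIs from mitochondrial genes and no UMI of the B-cell gene *Cd79a*. A cell was selected when *H2-Aa*, *H2-Ab1*, *H2-Eb1* and *Cd74* together reached 50 per 10000 UMIs, when *Gpnmb*, *Mmp12* and *Trem2* together stayed under 20 per 10000 UMIs, and when fewer than 3 of the resident macrophage genes *Stab1*, *Cbr2*, *Fcrls*, *F13a1* and *Pf4* were detected. Because these 14 genes chose the cells, none of them was tested, and the levels of the class II genes are given below as a description. The selected cells were not free of the other rule genes. Of the resident genes, 46 selected cells had 0 detected, 148 had 1 and 131 had 2. The sum of *Gpnmb*, *Mmp12* and *Trem2* had a median of 6.74 per 10000 UMIs in the selected cells. Genes that vary with the rule genes in single cells tend to differ in any comparison of the selected cells.

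The cells came from Diversity Outbred (DO) mice, outbred animals that each carry a different mixture of founder strain alleles. No treatment or labeled genotype group separates the samples, but the pools hold different mice and so differ in genotype. The study used mice of both sexes, and sex was not used here. Ages are not given in the sources used here. Marrow of the femurs was grown to confluence and then kept in osteogenic medium before the cells were freed, so these cells come from cultures and not from fresh marrow. Cells of 4 or 5 mice were mixed after culture in each of 16 pools (77 mice), and the 32 samples are the libraries of these pools read in 2 sequencing runs. The run HGYVNCCX2 was used, with 53990642 to 100777353 UMIs per pool. Cells were not assigned to mice here, so the cells of a pool may come from few animals and the pool is the replicate. Of the barcodes of this run 98.2% were also in the other run, 231 of the 325 selected cells were also selected in the other run, and 12 selected barcodes also occurred in another pool. Selected cells had a median of 5910 UMIs and 2001 genes, against 5860.5 UMIs and 2089.5 genes in the other *Tyrobp* cells.

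MHC class II molecules are heterodimers that present peptides from endocytosed proteins to helper T cells. Their alpha and beta chains (*H2-Aa*, *H2-Ab1*, *H2-Eb1*) assemble with the invariant chain Cd74, which is then degraded by cathepsin S, and the chaperone H2-DM exchanges the remaining fragment for a peptide. The transactivator Ciita switches these genes on together, through a factor complex on the X and Y boxes of their promoters. Dendritic cells and B cells carry the genes constitutively, whereas macrophages and monocytes acquire them in response to interferon-gamma and other signals. The Ear genes encode eosinophil-associated ribonucleases, a mouse family with many near-identical copies that is also expressed in some macrophages and monocytes.

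Promoter sequences are shown for the class II rule genes *H2-Aa* and *H2-Eb1*, for the chaperone gene *H2-DMb1*, and for *Ear2* and *Ear1*, whose copies are hard to tell apart. The sequences are RefSeq promoters on GRCm38.p6, 250 bases before to 50 bases after the start site, written 5′ to 3′ on the strand of the gene, with matches in capitals to 2 motifs searched on both strands, the X box core AACNGATG and the Y box core TGATTGG, which do not overlap in these promoters. *H2-Aa* (chr17:34287774-34288073, minus strand), *H2-Eb1* (chr17:34305617-34305916, plus strand) and *H2-DMb1* (chr17:34152941-34153240, plus strand) lie in the MHC region, and *Ear1* (chr14:43819590-43819889, minus strand) and *Ear2* (chr14:44102404-44102703, plus strand) lie in the Ear cluster.
H2-Aa: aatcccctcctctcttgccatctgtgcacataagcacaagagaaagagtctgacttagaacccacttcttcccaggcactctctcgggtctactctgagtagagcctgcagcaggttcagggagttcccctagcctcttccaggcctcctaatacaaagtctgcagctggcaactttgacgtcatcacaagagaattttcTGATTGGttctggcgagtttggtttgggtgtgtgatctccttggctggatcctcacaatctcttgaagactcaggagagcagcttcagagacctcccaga
H2-Eb1: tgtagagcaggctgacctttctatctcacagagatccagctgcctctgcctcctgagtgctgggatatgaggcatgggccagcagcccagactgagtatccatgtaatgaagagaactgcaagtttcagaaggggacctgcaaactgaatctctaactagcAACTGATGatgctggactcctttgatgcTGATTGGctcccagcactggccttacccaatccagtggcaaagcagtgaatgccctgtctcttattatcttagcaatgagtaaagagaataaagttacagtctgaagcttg
H2-DMb1: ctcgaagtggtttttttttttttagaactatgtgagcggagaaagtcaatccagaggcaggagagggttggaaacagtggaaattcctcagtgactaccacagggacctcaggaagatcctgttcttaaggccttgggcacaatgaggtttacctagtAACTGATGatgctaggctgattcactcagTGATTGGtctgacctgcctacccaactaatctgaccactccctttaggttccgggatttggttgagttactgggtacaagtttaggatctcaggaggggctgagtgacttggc
Ear2: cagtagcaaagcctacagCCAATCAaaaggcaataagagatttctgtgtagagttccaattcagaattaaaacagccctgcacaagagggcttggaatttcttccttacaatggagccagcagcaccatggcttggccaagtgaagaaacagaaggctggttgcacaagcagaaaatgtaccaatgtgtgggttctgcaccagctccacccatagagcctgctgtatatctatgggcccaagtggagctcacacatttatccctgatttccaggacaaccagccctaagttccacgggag
Ear1: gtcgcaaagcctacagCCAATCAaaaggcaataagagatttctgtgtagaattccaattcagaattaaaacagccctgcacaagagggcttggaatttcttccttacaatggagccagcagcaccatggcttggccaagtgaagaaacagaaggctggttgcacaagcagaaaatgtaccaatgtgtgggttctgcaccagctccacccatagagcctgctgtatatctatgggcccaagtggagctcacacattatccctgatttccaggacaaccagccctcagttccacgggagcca
The Y box core began at position -50 from the start site in *H2-Aa*, -61 in *H2-Eb1* and -63 in *H2-DMb1*, and the X box core at -89 in *H2-Eb1* and -92 in *H2-DMb1*. Of 32851 promoters of this length, 2.32% held the X box core, 7.82% the Y box core and 0.186%, or 61 promoters, held both, among them *H2-Eb1*, *H2-DMb1* and *H2-DMb2*. Of these 2 cores, *H2-Oa* and *H2-Ob* held the Y box core alone, and both listed promoters of *H2-DMa* held neither. A longer X box pattern, searched before this core, matched *H2-Oa* and not *H2-DMb2*. The promoters of *Ear1*, *Ear2* and *Ear10* hold a Y box core on the opposite strand far from the start site, and that of *Ear6* holds none. The *Ear1* promoter matched that of *Ear2* over 97% of the aligned positions, the *Ear10* promoter over 89.5% and the *Ear6* promoter over 79%. Of the 60-base stretches in *Ear2* transcripts, 29.1% also occurred in a transcript of another Ear gene (20.6% for *Ear1*, 29.2% for *Ear10* and none of 943 for *Ear6*), so the split of counts among *Ear1*, *Ear2* and *Ear10* is uncertain.

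The selected cells were unevenly spread over the pools. They made up 1.84% of all *Tyrobp* cells, and pools 5, 6, 8 and 18 held 276 of the 325 cells (84.9%). The share was 9.87% (141 of 1429 cells, 95% exact binomial interval 8.37 to 11.5%) in pool 8, 4.67% (83 of 1779 cells, 95% exact binomial interval 3.73 to 5.75%) in pool 18, 2.98% (23 of 771 cells, 95% exact binomial interval 1.9 to 4.44%) in pool 5 and 2.07% (29 of 1401 cells, 95% exact binomial interval 1.39 to 2.96%) in pool 6. The intervals of pools 8 and 18 overlap no other pool's point estimate, and these intervals cover counting error only. The other 7 pools with selected cells (3, 7, 9, 11, 12, 14 and 17) had 2 to 17 of them and shares of 0.284 to 1.38%. No cell was selected in pools 1, 2, 4, 10 and 13, where the exact binomial intervals reach 0.217, 0.15, 0.997, 0.426 and 0.377%, respectively, and a count of 0, taken as at most 3 cells, allows up to 0.176, 0.122, 0.815, 0.347 and 0.307%. These counts are of 1 sequencing run of the libraries, and in the other run 3 cells met the rule in pool 2, 1 in pool 4 and 15 in pool 5, with none in 3 pools. Near the limit, 28 selected cells had a class II sum of 50 to 60 per 10000 UMIs and 25 cells that met the other limits had 40 to 50. The median in selected cells was 134.9, with a range of 50.2 to 732.3.

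**Figure D1:**
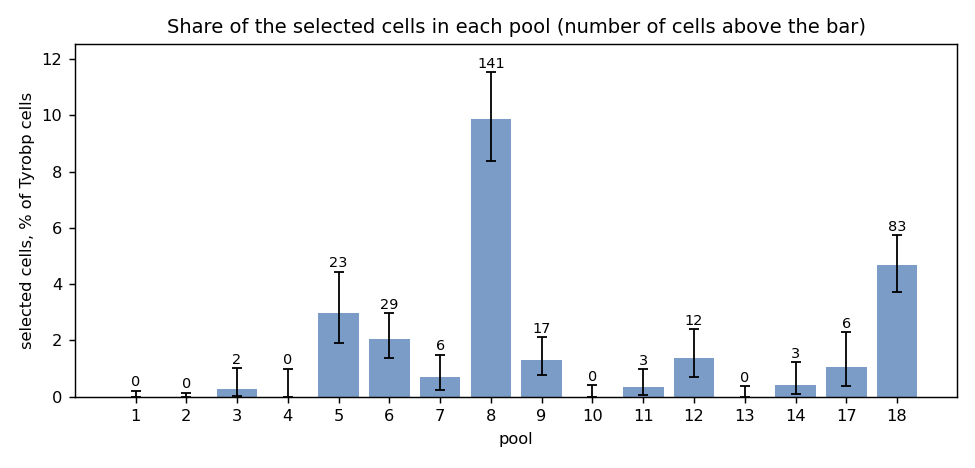
Share of the selected cells among *Tyrobp* cells in each of the 16 pools, with exact binomial 95% intervals (error bars, counting error only) and the number of selected cells above each bar. Pool 8 stands highest at 9.87%, followed by pool 18 at 4.67%, and 5 pools have none.

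Class II genes were also found in *Tyrobp* cells outside the selection, in the same pools. Of the 957 *Tyrobp* cells with a class II sum of 50 or more, 325 met the other limits, 292 were resident-type macrophages (3 or more resident genes detected, *Gpnmb* sum under 20), 172 were *Gpnmb*-type macrophages (*Gpnmb* sum of 20 or more, fewer than 3 resident genes) and 168 were both. Among resident-type macrophages, 33.9% (172 of 507) passed the class II limit in pool 8, 16.8% in pool 6, 13.9% in pool 5, 5.56% in pool 18 and at most 3.09% elsewhere. T cells (at least 2 UMIs of *Cd3* genes and no *Tyrobp*) numbered 255 in pool 8, 203 in pool 14, 164 in pool 6, 45 in pool 5 and 43 in pool 18, and at most 14 in any other pool. UMIs of *Ifng*, the gene of interferon-gamma, numbered 23 in pool 6, 20 in pool 8, 11 in pool 14, 9 in pool 7 and at most 2 in the others. Pool 14 had many T cells and 3 selected cells, and the part of T cells in the uneven spread was not tested.

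The rule set a lower limit on the class II sum of each selected cell, and above it the summed level of the 4 rule genes ran from 9778 CPM in pool 5 to 40602 CPM in pool 17. *H2-Aa*, the alpha chain of the I-A molecule, was at 1920.3, 3048, 3969 and 4526 CPM (UMIs of a gene per 1000000 UMIs of the group) in the selected cells of pools 5, 6, 8 and 18, and at 357, 337, 1462 and 197 CPM in resident-type macrophages of these pools. In the 7 pools with fewer than 20 selected cells it was between 4041 and 9391 CPM. *Cd74*, the invariant chain, was at 5319.8, 7046, 6752 and 11152 CPM in pools 5, 6, 8 and 18, and *H2-Ab1*, the beta chain of I-A, at 1606, 2703, 2481 and 2909 CPM. As background, stromal cells of these pools (no *Tyrobp* or *Ptprc* UMI, collagen I genes of at least 50 per 10000 UMIs) had 8.6, 14.5, 12.4 and 20.9 CPM of *Cd74*. These levels follow from the rule.

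*Ear2* was not used by the rule. It was at 498, 1002, 1621 and 113 CPM in the selected cells of pools 5, 6, 8 and 18 and at 1645 CPM in the 6 selected cells of pool 7. In the selected cells of pools 3, 11 and 12 it was at 0, in pool 9 at 9.62 CPM, in pool 17 at 28.8 CPM and in pool 14 at 62.7 CPM. A count of 0, taken as at most 3 UMIs, allows up to 405, 175 and 48.1 CPM in pools 3, 11 and 12. The levels of pools 9, 14 and 17 rest on 1 UMI each, and 3 UMIs would be 28.9, 188 and 86.5 CPM there. Pools 9, 12, 17 and 18 were thus below pools 5, 6, 7 and 8, and the few cells of pools 3, 11 and 14 do not set their level. Of the 325 selected cells, 194 (59.7%) had an *Ear2* UMI. After thinning each cell to 1500 UMIs, 45.5, 41.4, 79.2 and 17.3% of selected cells of pools 5, 6, 8 and 18 had one. The share was 4.44, 5.88, 30.1 and 1.29% in resident-type macrophages and 16.6, 20.2, 11.9 and 0.562% in *Gpnmb*-type macrophages of these pools, below that of the selected cells in each. In stromal cells of these pools, a background for free RNA, it was 0.3, 0.4, 0.6 and 0%. The other *Tyrobp* cells went the same way between pools, at 121, 155, 319 and 14.7 CPM in pools 5, 6, 8 and 18. The defining genes of eosinophils were near 0 in the selected cells: of *Prg2*, *Epx*, *Siglecf*, *Ccr3* and *Il5ra*, 3 had no UMI in pools 5, 6, 8 and 18 and the sum of the 5 was at most 1.44 CPM.

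Of the other label genes, *Ccl8*, a chemokine gene, was at 74.1, 349, 425 and 175 CPM in the selected cells and 663, 622, 229 and 153 CPM in the other *Tyrobp* cells, lower in pools 5 and 6 and higher in pools 8 and 18, with no call (log2 fold change -0.43 ± 0.38, SE, adjusted p = 0.627). *Arg1*, the arginase of alternatively activated macrophages, was at 233, 288, 27 and 56 CPM against 197, 312, 18.2 and 24.4 CPM, also with no call (log2 fold change 0.53 ± 0.22, SE, adjusted p = 0.177). *Arg1* was high in both groups of pools 5 and 6 and low in both groups of pools 8 and 18.

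*H2-Eb1*, the beta chain of the I-E molecule, was low in pool 8 beside the other class II genes. In the selected cells it was at 932, 1321, 273 and 1366 CPM in pools 5, 6, 8 and 18, so the pool with most selected cells had the lowest level. Per UMI of *H2-Aa* there were 0.485, 0.433 and 0.302 UMIs of *H2-Eb1* in pools 5, 6 and 18, and 0.0689 in pool 8. The ratio was also low in the other cells of pool 8, at 0.0248 in resident-type and 0.0243 in *Gpnmb*-type macrophages. In pool 12 it was 0.0375 (22 against 586 UMIs in 12 cells), and in the other pools with selected cells it was 0.189 or more. *H2-Ab1* per UMI of *H2-Aa* varied less, between 0.594 and 1.15 over the 11 pools. A like gap was seen between *Ear1* and *Ear2* in pool 18. *Ear1* was at 222, 437, 867 and 0 CPM in the selected cells and at 56.3, 69.3, 157 and 0.212 CPM in the other *Tyrobp* cells, so that pool 18 had *Ear2* with next to no *Ear1* in either group. The authors name as a limit that reads were aligned without regard to founder variants, which could change measured levels. The part of this in both gaps was not tested.

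The first comparison asked which genes outside the rule went with the selected cells, against the other *Tyrobp* cells of the same pool. Counts were summed per pool and group and tested over the 4 pools with at least 20 cells of each group, by the quasi-likelihood method of edgeR in a model that blocks on pool. An adjusted p (Benjamini-Hochberg) of at most 0.05 was a call. Each gene below is given in CPM in pools 5, 6, 8 and 18, in this order, and each fold change as log2 of selected over compared cells. As cells in a pool were not assigned to mice, p-values measure the spread of the within-pool difference over 4 pools. The genes that were higher in the selected cells included 4 to 8 genes in each of the lists of class II partners, class I presentation, costimulation, Ear genes, cytokines and interferon response. Most neutrophil genes and all 3 tested genes of the basophil or mast cell list were lower. Of 11163 genes tested, 410 were higher (3.67%) and 307 lower (2.75%), 6.42% in all. The median log2 fold change of all genes tested was -0.07. Higher and lower calls split 371 to 371 under upper-quartile scaling, 364 to 185 in DESeq2 and 471 to 541 without the count filter. Without pool 6 the calls numbered 231 higher and 186 lower, and without cells over 5% stromal UMIs 280 higher and 175 lower.

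Of the 12 tested genes of the class II pathway beyond the rule genes, 6 were higher and none lower (median log2 fold change 1.21). *H2-DMa*, the alpha chain of the peptide exchange chaperone, was at 311, 396, 402 and 606 CPM in the selected cells of pools 5, 6, 8 and 18 and at 77.4, 72.4, 93.5 and 54.8 CPM in the other *Tyrobp* cells (log2 fold change 2.61 ± 0.23 (SE), adjusted p = 2.37e-07). *H2-DMb1*, its beta chain, was at 222, 314, 418 and 291 against 54.7, 55.2, 79.4 and 22.1 CPM (log2 fold change 2.76 ± 0.24 (SE), adjusted p = 2.10e-07). For both genes the lowest pool of the selected cells was above the highest pool of the others, which held for 2.36% of the genes tested. *Ciita*, the transactivator, was far scarcer, at 24.7, 15.4, 58.7 and 44.5 against 6.48, 4.04, 12.9 and 2.4 CPM (log2 fold change 2.78 ± 0.39 (SE), adjusted p = 0.00011). *H2-DMb2*, the second beta chain, was at 35.3, 103, 12.9 and 31.6 against 2.57, 2.8, 3.35 and 3.11 CPM (log2 fold change 3.67 ± 0.46 (SE), adjusted p = 2.64e-05), and *H2-Oa*, a modulator of H2-DM known from B cells and dendritic cells, at 10.6, 5.14, 2.35 and 28.7 against 0.734, 1.15, 0.815 and 3.53 CPM (log2 fold change 2.89 ± 0.60 (SE), adjusted p = 0.00467). Reads of *H2-DMb1* and *H2-DMb2*, near-identical neighbors, may have been split between them. *Ctss*, the cathepsin that trims the invariant chain, was higher (log2 fold change 0.99, adjusted p = 0.0136) but overlapped between groups, since in pool 5 it was at 1045 against 1137 CPM. Leaving out 1 pool ended the call of *Ctss* (without pool 6, adjusted p = 0.098) and of *H2-Oa* (without pool 18, adjusted p = 0.231).

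**Figure D2:**
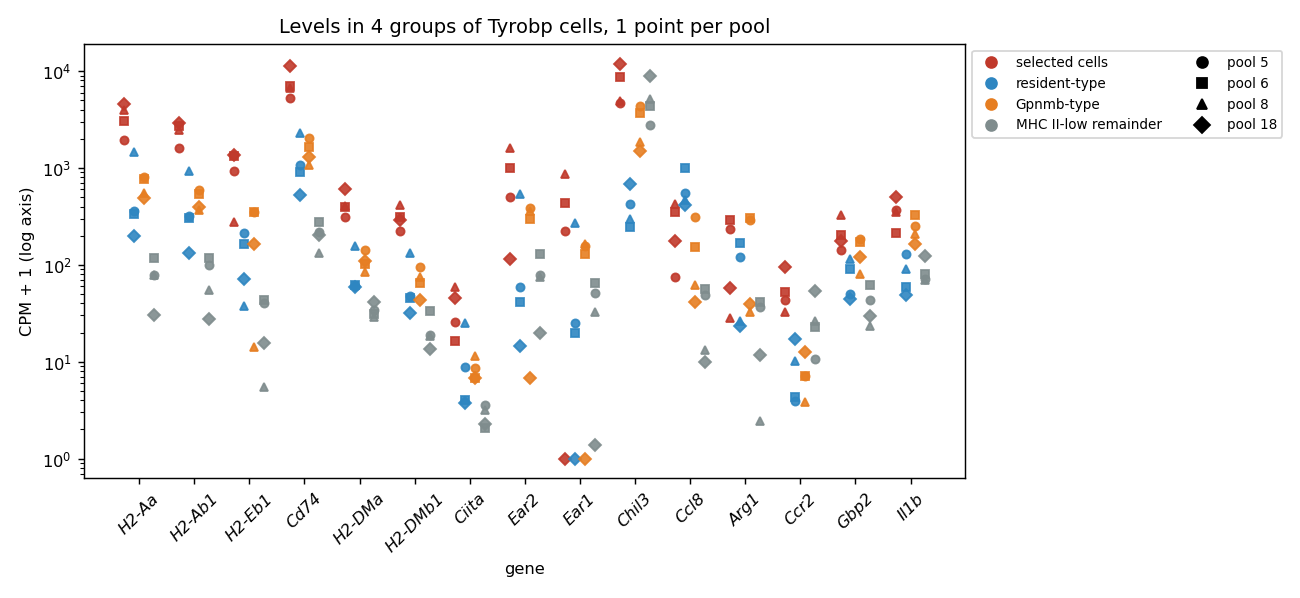
Level of 15 genes (CPM + 1, logarithmic axis) in the selected cells and 3 other groups of *Tyrobp* cells, with 1 point for each of pools 5, 6, 8 and 18 (symbol). Class II genes and *H2-DMa* stand highest in the selected cells of each pool, and *Ear2* and *Ear1* spread widely between pools. *Ccl8* is lower in the remainder than in the selected cells of each pool. *Arg1* is higher in the selected cells of pools 5 and 6 than in those of pools 8 and 18.

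The called genes of MHC class I presentation, costimulation and interferon response were all higher. Of 12 class I genes, 7 were higher and none lower (median 0.89), among them the immunoproteasome subunit *Psmb9* at 159, 113, 239 and 123 against 68.2, 69.8, 81.9 and 63.2 CPM (log2 fold change 1.24 ± 0.19 (SE), adjusted p = 0.00028). Costimulation genes gave 4 higher of 8 tested (median 0.93), with *Cd274*, which encodes the inhibitory ligand PD-L1, at 106, 242, 419 and 258 against 105, 144, 126 and 103 CPM (log2 fold change 1.12 ± 0.22 (SE), adjusted p = 0.00317) and *Cd40*, the receptor of T-cell CD40L, at 28.2, 56.5, 106 and 87.5 against 27.9, 25.4, 34.9 and 24.4 CPM (log2 fold change 1.42 ± 0.26 (SE), adjusted p = 0.00144). In pool 5 both genes were at nearly the same level in both groups, and both were higher in pools 6, 8 and 18. Of 15 interferon-response genes, 6 were higher and none lower (median 0.84). The guanylate-binding protein gene *Gbp2* was at 141, 200.4, 328 and 174 against 90.1, 118, 70.4 and 44.4 CPM (log2 fold change 1.56 ± 0.24 (SE), adjusted p = 0.000312). It was higher in the selected cells of all 4 pools.

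Of 15 tested genes of the Ear and alternative activation list, 8 were higher and none lower (median 1.01). *Ear2* (chr14:44102654-44103534) was higher in all 4 pools at the levels given above (log2 fold change 2.58 ± 0.19 (SE), adjusted p = 2.53e-08). *Ear1* was higher in pools 5, 6 and 8 (log2 fold change 2.42 ± 0.21 (SE), adjusted p = 2.40e-07), and *Ear6* rested on pool 8, at 0, 5.14, 226 and 0 against 1.71, 4.12, 36.8 and 0 CPM (log2 fold change 2.22 ± 0.42 (SE), adjusted p = 0.00246), with an adjusted p of 0.633 in DESeq2. *Chil3*, a chitinase-like protein of monocytes and alternatively activated macrophages, was at 4719.7, 8711, 4875 and 11911 against 1791, 2549, 2307 and 5381 CPM (log2 fold change 1.44 ± 0.19 (SE), adjusted p = 4.87e-05), highest in pool 18, where *Ear2* was lowest. Over the 8 pools with at least 5 cells of each group, tried after the data were seen, *Chil3* had a log2 fold change of 0.22 with an adjusted p of 0.8. *Mgl2*, a lectin of monocyte-derived and dendritic cells, was at 67.1, 175, 43.4 and 314 against 35, 28.8, 42.3 and 22 CPM (log2 fold change 2.06 ± 0.44 (SE), adjusted p = 0.00549) and nearly level in pool 8. Without pool 6 it had an adjusted p of 0.126.

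Among cytokine genes 6 of 13 were higher and none lower (median 0.77). *Il1b*, the gene of interleukin-1 beta, was at 367, 211, 351 and 497 against 164, 153, 100.4 and 113 CPM (log2 fold change 1.54 ± 0.22 (SE), adjusted p = 0.000181), *Il1a* had a log2 fold change of 1.77, adjusted p = 0.000105, *Il18* of 1.89, adjusted p = 5.24e-05 and the prostaglandin synthase gene *Ptgs2* of 1.55, adjusted p = 0.000227. The chemokine list was divided, with *Cxcl3*, a neutrophil attractant, higher (log2 fold change 1.44, adjusted p = 0.000105) and 4 of 16 genes lower. *Ccl2*, a monocyte attractant, was at 67.1, 164, 683 and 155 against 475, 515, 828 and 307 CPM (log2 fold change -1.19 ± 0.27 (SE), adjusted p = 0.00826), and *Ccl7* and *Ccl12* had log2 fold changes of -1.45, adjusted p = 0.00336 and -2.61, adjusted p = 0.00168. All 3 were higher in the other *Tyrobp* cells of every pool, and without pool 6 *Ccl2* and *Ccl7* had adjusted p of 0.103 and 0.0595.

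Monocyte genes were mixed. Of 11 tested, 4 were higher and 1 lower (median 0.38). *Treml4* was higher, with the largest change of the called monocyte genes. It was detected in 6.19% of the selected cells with an *Ear2* UMI and in 4.58% of those without. *Ccr2*, the receptor that brings monocytes out of marrow, was at 42.4, 51.4, 31.7 and 94.7 against 5.99, 9.48, 14.1 and 35.1 CPM (log2 fold change 1.86 ± 0.28 (SE), adjusted p = 0.000303), and *Vcan*, a proteoglycan of monocytes, at 49.4, 154, 22.3 and 321 against 20.7, 34.2, 13.6 and 93.9 CPM (log2 fold change 1.65 ± 0.24 (SE), adjusted p = 0.000148). *Ly6c2*, the defining gene of classical monocytes, was at 0, 10.3, 16.4 and 319 against 12.7, 4.12, 123 and 194 CPM, with no call (log2 fold change -0.61 ± 0.51, SE, adjusted p = 0.594). It was high in pool 18 and low in the other 3 pools, so of the monocyte markers *Ccr2* and *Vcan* were higher in all 4 pools and *Ly6c2* in pools 6 and 18. Without pool 18 *Ly6c2* was lower (log2 fold change -2.64, adjusted p = 0.000101). *Cx3cr1*, a receptor of patrolling monocytes, was lower (log2 fold change -2.06, adjusted p = 0.0219), with 7 UMIs in the selected cells and adjusted p of 0.0573, 0.131 and 0.113 without pools 6, 8 and 18, respectively.

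Of 18 cytokine receptor genes, 6 were higher and 1 lower (median 0.53), *Ccr2*, *Cx3cr1* and *Csf3r* of other lists among them, with *Csf2rb*, the common beta chain of the GM-CSF receptor, at 222, 247, 232 and 478 against 141, 156, 89.9 and 148 CPM (log2 fold change 1.23 ± 0.20 (SE), adjusted p = 0.000562). Of 6 tested dendritic cell genes, 2 were higher (median 1.30), the protease gene *Napsa* (log2 fold change 1.64, adjusted p = 0.000126) and the lectin gene *Clec10a* (log2 fold change 1.01, adjusted p = 0.00932), whose adjusted p was 0.0796 and 0.0946 without pools 6 and 18. *Irf4*, a transcription factor of dendritic and alternatively activated cells, was at 14.1, 0, 18.8 and 17.2 against 6.85, 12.5, 3.26 and 4.03 CPM, with no call over the 4 pools (adjusted p = 0.0747) and one without pool 6 (log2 fold change 2.07, adjusted p = 0.0232). Of 18 myeloid transcription factors, 3 were higher and 1 lower (median 0.38), among them *Nr1h3*, which encodes the sterol sensor LXR alpha (log2 fold change 1.21, adjusted p = 0.00257). The migratory dendritic cell gene *Ccr7* had 31 UMIs in the selected cells and a log2 fold change of 6.13, adjusted p = 1.06e-05, while *Fscn1* of the same list was lower (log2 fold change -1.35, adjusted p = 0.0431), with adjusted p of 0.0713, 0.125 and 0.163 without pools 5, 6 and 8 and 0.0769 in DESeq2. *Ccr7* was detected in 27.1% of the cells of cluster 3, described further on, and in 1.44% of the other selected cells. Of 14 lipid and lysosome genes, 4 were lower and none higher, with *Cd36* and *Spp1*, osteopontin, at log2 fold changes of -1.70, adjusted p = 0.000653 and -1.63, adjusted p = 7.10e-05. No plasmacytoid dendritic cell, osteoclast, B cell or endothelial gene of 3, 10, 2 and 2 tested was called in edgeR, with 1, 4, 0 and 1 at an unadjusted p under 0.05 and 0 called in DESeq2. Of 3 T or NK cell genes tested 2 were lower, both with 1 or 2 UMIs in the selected cells, neither called in DESeq2, and no eosinophil gene passed the count filter.

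The 10 higher genes of largest fold by the naming rule also held genes outside these lists. *Naaa*, a lysosomal acid amidase, was at 286, 401, 321 and 224 against 79.6, 87.6, 46.7 and 49 CPM (log2 fold change 2.36 ± 0.18 (SE), adjusted p = 5.40e-08), and *Flrt3*, a guidance and adhesion protein, at 109, 108, 115 and 91.8 against 27.2, 32.6, 17.5 and 20.7 CPM (log2 fold change 2.28 ± 0.21 (SE), adjusted p = 5.28e-07). *F7*, coagulation factor VII, had a log2 fold change of 2.13, adjusted p = 3.65e-06, *Met*, the hepatocyte growth factor receptor, of 2.16, adjusted p = 5.88e-05, *Gbp4* of 2.18, adjusted p = 9.65e-05, *Fam26f* of 2.24, adjusted p = 9.81e-06 and *Sirpb1c* of 2.14, adjusted p = 5.39e-06. *Naaa* and *Flrt3* did not overlap between groups, with every pool of the selected cells above every pool of the others. The same held for 264 of the 11163 genes tested (2.36%), and the naming rule picked genes of large fold with the same direction in every pool.

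Markers of granulocytes and mast cells were lower in the selected cells than in the mixed group of other *Tyrobp* cells. The lower neutrophil genes were not seen against either macrophage group. Against resident-type macrophages, 0 of 5 tested neutrophil genes were lower and 1 was higher. Against *Gpnmb*-type macrophages, 0 of 4 were lower and 2 were higher. Against the other *Tyrobp* cells, neutrophil genes were lower for 9 of 10 and higher for 1, *Csf3r* (log2 fold change 1.25, adjusted p = 0.00549), whose adjusted p was 0.0626 without pool 18. *S100a9* was at 3.53, 72, 57.5 and 865 against 1935, 5086, 13094 and 20074 CPM (log2 fold change -6.24 ± 0.46 (SE), adjusted p = 2.53e-08). *Elane*, the neutrophil elastase, and *Ctsg*, cathepsin G, had no UMI in the selected cells of these pools, which puts them at least 120.4-fold and 53.2-fold lower against a floor of 3 UMIs over the group. *Prss34* and *Cpa3*, protease genes of basophils and mast cells, were at least 70.3-fold and 57.2-fold lower by the same floor. *Camp* and *Ngp*, secondary granule genes, had 20 and 45 UMIs in the selected cells and log2 fold changes of -8.07, adjusted p = 2.98e-12 and -7.29, adjusted p = 4.40e-12. Of 18 macrophage genes, 6 were lower and 1 higher, with 4 called in DESeq2, and with *Folr2*, a folate receptor of resident macrophages, at 3.53, 20.6, 27 and 4.31 against 88.3, 184, 105 and 78.1 CPM (log2 fold change -2.83 ± 0.31 (SE), adjusted p = 5.88e-06). Of 9 stromal genes, 6 were lower (median -0.98), with 2 called in DESeq2, and their sum was 74819.7, 17962, 10274 and 8088 CPM in the selected cells and 61312, 32814, 39730.3 and 37735 CPM in the others. The sum was higher in the selected cells in pool 5, where the median cell had 0.363% stromal UMIs against 0.513% in resident-type macrophages and 0.678% in the remainder. The part of stromal RNA in the differences of that pool was not tested. Cell cycle genes gave no call among 16 tested (1 at an unadjusted p under 0.05 in edgeR, none in DESeq2, median -0.01).

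The next comparison set the selected cells against resident-type macrophages of the same pool, a group that differs by the resident genes and partly by the class II limit. Resident-type macrophages were read more deeply, with medians of 7132 UMIs and 2351 genes against 5910 and 2001 in the selected cells. Among the genes higher in the selected cells were 5 monocyte genes, *Chil3*, *Ear2* and *Il1r2*, and among those lower were 10 macrophage genes and 5 chemokines. Of 9374 genes tested, 510 were higher (5.44%) and 514 lower (5.48%), 10.9% in all, with a median log2 fold change of -0.03 over all genes. Higher and lower calls split 440 to 611 under upper-quartile scaling. The largest higher genes were *Il1r2*, the decoy receptor of interleukin-1, at 42.4, 149, 4.69 and 419 against 1.29, 1.34, 1.27 and 21.1 CPM (log2 fold change 4.79 ± 0.42 (SE), adjusted p = 1.23e-05) and *Chil3*, at 428, 245, 299 and 688 CPM in resident-type macrophages (log2 fold change 4.30 ± 0.28 (SE), adjusted p = 1.82e-06). *F10*, coagulation factor X, *Ass1*, argininosuccinate synthase, and *Wfdc21* followed with log2 fold changes of 3.26, adjusted p = 3.35e-06, 3.21, adjusted p = 1.01e-05 and 3.19, adjusted p = 6.14e-06.

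Monocyte genes gave 5 higher and 1 lower of 10 tested (median 1.69). *Ccr2* was at 2.89, 3.36, 9.13 and 16.1 CPM in resident-type macrophages (log2 fold change 2.84 ± 0.35 (SE), adjusted p = 0.000183), and *Vcan* and *Plac8*, both high in monocytes, had log2 fold changes of 2.34, adjusted p = 0.000228 and 1.89, adjusted p = 0.00812. *Ear2* was at 58.5, 40.7, 534 and 13.4 CPM in resident-type macrophages (log2 fold change 3.16 ± 0.37 (SE), adjusted p = 0.000128), with the highest level in pool 8 in both groups. *Napsa*, an aspartic protease of antigen-presenting cells, was at 116, 123, 71.6 and 264 against 16.1, 11.1, 21.9 and 21.8 CPM (log2 fold change 3.00 ± 0.31 (SE), adjusted p = 4.04e-05).

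Of 18 macrophage genes, 10 were lower and none higher (median -1.03). *Vsig4*, a complement receptor of resident macrophages, was at 3.53, 41.1, 5.87 and 2.87 against 150.2, 281, 112 and 129 CPM (log2 fold change -4.01 ± 0.33 (SE), adjusted p = 7.91e-06). *Apoe*, which encodes apolipoprotein E, was at 1055, 1069, 2465 and 175 against 1895, 3097, 6893 and 3601 CPM (log2 fold change -1.85 ± 0.40 (SE), adjusted p = 0.00712), and *C1qa*, a complement component, had a log2 fold change of -1.37, adjusted p = 0.00382. *Cxcl13*, a B-cell attractant, had 2 UMIs in the selected cells and 921 in resident-type macrophages, a ratio of 0.0159 with a 95% counting interval of 0.00192 to 0.0576. Chemokines gave 2 higher and 5 lower of 16, with *Ccl12*, *Ccl7*, *Ccl2* and *Ccl4* at log2 fold changes of -3.18, adjusted p = 0.000462, -2.14, adjusted p = 0.000262, -1.82, adjusted p = 0.000538 and -1.56, adjusted p = 0.000694. *Ccl8* was lower too (log2 fold change -1.21, adjusted p = 0.0144), with adjusted p of 0.0509 and 0.087 without pools 5 and 6. The stromal list was lower for 6 of 9 genes here as well, with sums of 85750.3, 48943, 45364 and 52176 CPM in resident-type macrophages. Without cells over 5% stromal UMIs the calls numbered 263 higher and 191 lower, and with the resident genes limited by their sum in place of their number (3 pools) 21 higher and 36 lower. Under that limit *Chil3* had a log2 fold change of 2.21 (adjusted p = 0.136) and *Ccr2* of 0.41 (adjusted p = 0.899). Of the genes named in this comparison, 15 lost their call under it, 3 changed direction and 19 stayed as they were. That limit left 3 pools in place of 4. It also changed the cells of both groups, with 231 selected cells over all pools in place of 325. The part of each in the lost calls was not tested.

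When resident-type macrophages were held to the same class II limit of 50 per 10000 UMIs, most of the class II, class I and interferon differences were no longer called. This comparison was added after class II genes had been seen in resident-type macrophages, and set 23, 29, 141 and 83 selected cells of pools 5, 6, 8 and 18 against 32, 46, 172 and 22 resident-type macrophages. Of 4182 genes tested, 39 were higher and 55 lower. No class I gene of 11 tested and no costimulation gene of 5 was called in edgeR (2 and 0 at an unadjusted p under 0.05). In the class II pathway 1 of 5 was called, the lysosomal protease *Lgmn* (-1.05 ± 0.20), and in the interferon list 1 of 8, the antiviral gene *Rsad2* (-1.77 ± 0.26), both lower. *H2-DMa* had a log2 fold change of 0.03 ± 0.14 (SE), *H2-DMb1* of 0.14 ± 0.15, *Psmb9* of 0.02 ± 0.19, *Gbp2* of -0.11 ± 0.19, *Cd274* of 0.01 ± 0.15 and *Cd40* of -0.16 ± 0.21. *Il1b* (log2 fold change 0.21 ± 0.36) and *Il1a* (-0.15 ± 0.22) were not called either. *Ear2* had a log2 fold change of 0.72 ± 0.29 with an adjusted p of 0.307, and *Ear1* of 0.84 ± 0.32 with an adjusted p of 0.279. A p above the threshold does not show that these levels were equal.

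Of 14 chemokine genes 7 were lower in the selected cells and of 16 macrophage genes 9, with none higher in either list, while of 7 monocyte genes 1 was higher, *Fn1*, which encodes fibronectin (1.00 ± 0.15). Against all resident-type macrophages *Fn1* had a log2 fold change of -0.21, adjusted p = 0.472. Among the clusters of selected cells described further on, *Fn1* was highest in the one led by stromal genes (1079.5 CPM against 87.8 to 627 CPM). Of 11 tested genes of the list of Ear genes and alternative activation, 1 was higher, *Chil3*, and 4 were lower, *Arg1*, *Ccl8*, *Clec10a* (-1.41 ± 0.17) and *Mrc1*, the mannose receptor (-0.95 ± 0.14), whereas 6 were higher and 1 lower against all resident-type macrophages. Of 10 cytokine genes 1 was called, *Tnf* (-1.28 ± 0.13). *Chil3* was at 4719.7, 8711, 4875 and 11911 CPM in the selected cells and 817, 1139.8, 922 and 3501 CPM in class II resident-type macrophages (log2 fold change 2.43 ± 0.16 (SE), adjusted p = 3.38e-05 in edgeR). *Il1r2* (log2 fold change 2.89 ± 0.47), *Napsa* (1.82 ± 0.22), *Met* (1.22 ± 0.23) and *Inhba*, an activin subunit named after its value was seen (2.20 ± 0.32), were higher as well. *Ccl12* (-5.11 ± 0.38), *Vsig4* (-4.07 ± 0.29), *Ccl8* (-3.38 ± 0.34), *Ccl7* (-2.93 ± 0.39), *Folr2* (-2.52 ± 0.35), *C1qa* (-1.88 ± 0.19), *Apoe* (-1.79 ± 0.25) and *Arg1* (-1.43 ± 0.23) were lower. *Arg1* and *Ccl8*, both label genes, were thus higher in class II resident-type macrophages than in the selected cells, whereas against all resident-type macrophages *Arg1* was higher in the selected cells (log2 fold change 0.93, adjusted p = 0.0112). Of 6 tested genes of the stromal list none was called in edgeR, with 0 at an unadjusted p under 0.05, while the contractile genes *Tagln* (2.33 ± 0.49) and *Acta2* (1.81 ± 0.40), outside that list and named after their values were seen, were higher. The part of stromal RNA in this comparison was not tested.

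**Figure D3:**
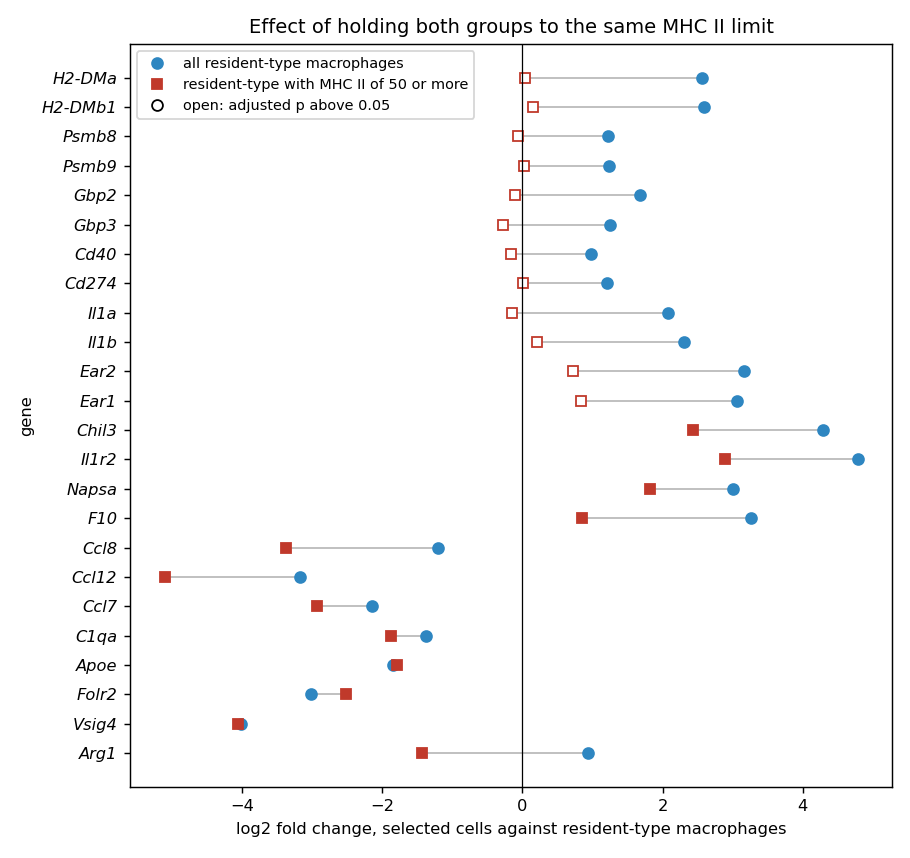
Log2 fold change of 24 genes between the selected cells and resident-type macrophages, with all resident-type macrophages (circles) and with those that pass the same class II limit (squares); filled symbols have an adjusted p of at most 0.05. Most class II partners, interferon and interleukin-1 genes move close to 0, *Chil3*, *Il1r2* and *Napsa* stay to the right, *Ccl12*, *Vsig4* and *Ccl8* lie to the left with both symbols, and *Arg1* moves from right to left.

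Against *Gpnmb*-type macrophages, which carry genes of lipid handling and phagocytosis, 7 of 8 tested monocyte genes were higher. These macrophages had medians of 5176.5 UMIs and 2068 genes. Of 7623 genes tested, 399 were higher (5.23%) and 247 lower (3.24%), 8.47% in all, around a median log2 fold change of -0.00. Calls split 320 to 315 under upper-quartile scaling. Of 8 monocyte genes, 7 were higher and none lower (median 2.51). *Plac8* was at 42.4, 139, 242 and 303 against 2.75, 6.41, 14.2 and 11.5 CPM (log2 fold change 4.53 ± 0.25 (SE), adjusted p = 1.25e-06). *Ccr2* had a log2 fold change of 3.24, adjusted p = 8.96e-05 and *Vcan* of 3.06, adjusted p = 0.00132. *Ifitm1*, an interferon-induced membrane protein, had a log2 fold change of 4.94, adjusted p = 2.87e-05. All of these were higher in each pool.

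The lectin genes *Mgl2* and *Clec10a* were higher as well, at log2 fold changes of 3.71, adjusted p = 1.70e-05 and 2.62, adjusted p = 0.000234, and *Ear2* was at 385, 295, 356 and 5.75 CPM in *Gpnmb*-type macrophages (log2 fold change 2.05 ± 0.39 (SE), adjusted p = 0.00743), with adjusted p of 0.0549 and 0.0669 without pools 6 and 8. *H2-DMa* and *H2-DMb1* had log2 fold changes of 2.17, adjusted p = 0.000234 and 2.40, adjusted p = 0.000205. Of 14 lipid and lysosome genes, 6 were lower and none higher (median -0.75), with *Cd36*, the fatty acid receptor, at 63.5, 36, 107 and 30.1 against 236, 707, 598 and 501 CPM (log2 fold change -2.89 ± 0.33 (SE), adjusted p = 0.000375), *Plin2*, a lipid droplet protein, at a log2 fold change of -1.72, adjusted p = 0.00112 and *Ctsd*, cathepsin D, at -1.63, adjusted p = 0.000691. *Htr2b*, a serotonin receptor, had 2 UMIs in the selected cells and 399 in *Gpnmb*-type macrophages, a ratio of 0.0173 with a 95% counting interval of 0.00209 to 0.0629. Of 6 osteoclast genes, 3 were lower, with *Ctsk*, cathepsin K, at -1.56, adjusted p = 0.00997 and *Atp6v0d2*, a proton pump subunit, at -1.96, adjusted p = 0.0142. Without pool 8 their adjusted p were 0.0757 and 0.0729, and without pool 6 that of *Atp6v0d2* was 0.0558. Of 13 cell cycle genes, 4 were higher (median 1.12). The same class II limit left pools 5, 6 and 8, since pool 18 had 19 *Gpnmb*-type macrophages above it, under the minimum of 20. Of 4031 genes, 27 were then higher and 36 lower. *Plac8* at 2.73 ± 0.42 (SE) and *Mgl2* at 1.57 ± 0.29 were among the higher ones. *Nos2*, the inducible nitric oxide synthase, at -3.74 ± 0.38 and *Ccl5* at -3.72 ± 0.56 were among the lower ones. These directions do not hold throughout, since against all *Gpnmb*-type macrophages neither was called, with log2 fold changes of -0.81 for *Nos2*, or 0.41 with the resident genes limited by their sum, and 0.78 for *Ccl5*, or 2.28 with a call without pool 8 and -0.94 without pool 18. Under the same limit, 8 of the genes named in this comparison lost their call, 1 changed direction, 1 gained a call and 4 stayed as they were. In these changes the limit and the loss of pool 18 cannot be told apart. In the comparison with all *Gpnmb*-type macrophages, 161 genes were higher and 86 lower without pool 6, 190 and 118 without pool 8, and 250 and 111 without pool 18.

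The remainder, *Tyrobp* cells of any type under the class II limit with few *Gpnmb* and resident genes, are set apart from the selected cells by the class II limit alone. They had medians of 4922 UMIs and 1735 genes, and they gave the most calls. Of 9095 genes tested, 1011 were higher in the selected cells (11.1%) and 656 lower (7.21%), 18.3% in all, with a median of -0.03. Upper-quartile scaling moved the median to -0.16 and the split to 844 higher and 933 lower. *Mgl2* was at 67.1, 175, 43.4 and 314 against 5.07, 2.94, 2.14 and 5.24 CPM (log2 fold change 5.24 ± 0.37 (SE), adjusted p = 5.51e-06). *Ear2* was at 78.2, 129, 73.1 and 18.7 CPM in the remainder (log2 fold change 3.25 ± 0.28 (SE), adjusted p = 1.93e-05). *Ccl8* was called here, at 47.8, 54.8, 12.3 and 8.82 CPM in the remainder (log2 fold change 3.37 ± 0.55 (SE), adjusted p = 0.00143), and *Arg1* too (log2 fold change 2.91 ± 0.25 (SE), adjusted p = 1.61e-05). *Chil3*, at 2758, 4409, 5178 and 8974 CPM in the remainder, overlapped between groups, with no call (log2 fold change 0.58 ± 0.22 (SE), adjusted p = 0.0987). Without pool 8 it was called (log2 fold change 0.80, adjusted p = 0.00727), and over the 8 pools with at least 5 cells of each group it was at -0.96 (adjusted p = 0.159).

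Of 12 Ear and alternative activation genes, 10 were higher, and of 12 cytokine genes 10, of 17 cytokine receptors 15 and of 12 interferon-response genes 9, with none lower in these lists. Macrophage genes, lower against resident-type cells, were higher against the remainder for 9 of 15 genes and lower for 1. *Mrc1*, the mannose receptor, had a log2 fold change of 3.01, adjusted p = 8.18e-06, *Adgre1*, which encodes F4/80, of 2.26, adjusted p = 0.000423 and *C1qb* of 2.04, adjusted p = 2.03e-05. *Csf1r*, the receptor of macrophage colony-stimulating factor, had one of 1.76, adjusted p = 0.000314. *Irf8*, a transcription factor of monocytes and dendritic cells, was higher as well (log2 fold change 1.60, adjusted p = 0.000684). Of 9 monocyte genes, 3 were higher and 1 lower (median 0.47). The sum of the monocyte list was 1186, 1485, 1158 and 2297 CPM in the selected cells. In the remainder it was 1609, 1701, 1848 and 1882 CPM, so it was lower in the selected cells of pools 5, 6 and 8. Neutrophil genes were lower for 9 of 10, and the neutrophil sum of 10 genes was 131, 262, 222 and 2111 CPM in the selected cells and 15976, 44088, 79852 and 84961 CPM in the remainder. The 4 comparisons share the selected cells, so their calls are not independent of each other.

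**Figure D4:**
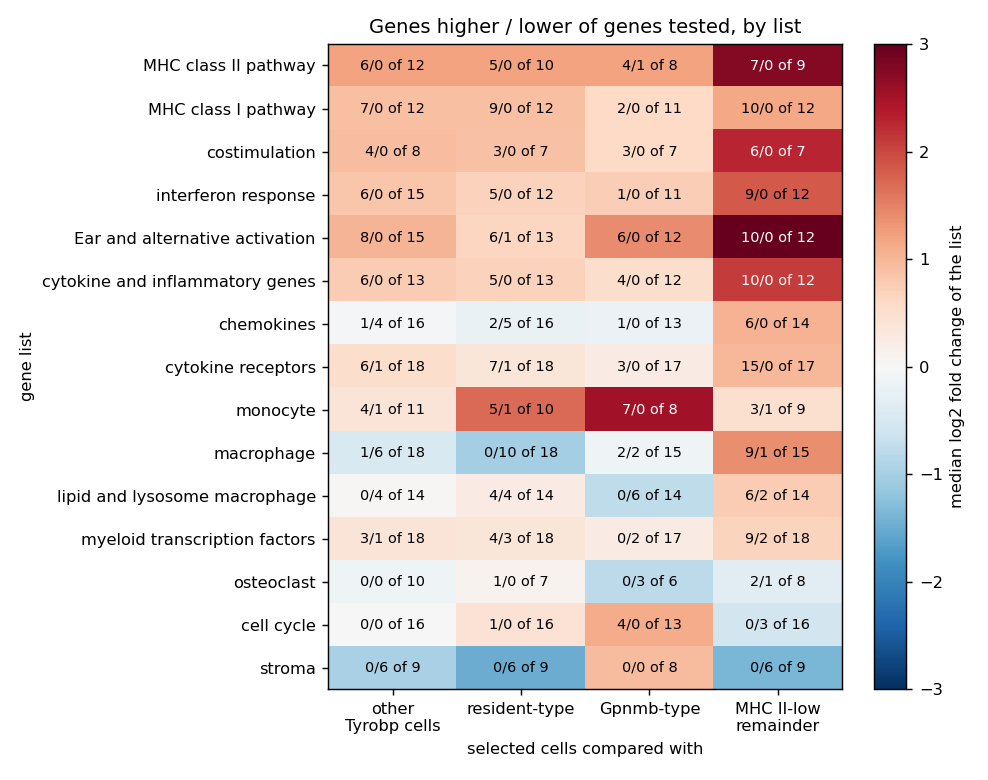
Median log2 fold change of 15 gene lists (color) in the 4 comparisons (columns), with the number of genes higher and lower in the selected cells of the genes tested. Monocyte genes have a median of 1.69 against resident-type macrophages, 2.51 against *Gpnmb*-type macrophages and 0.47 against the remainder. Macrophage genes are below 0 against resident-type macrophages and above 0 against the remainder.

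Among themselves the selected cells fell into 6 clusters when the rule genes were left out (Louvain resolution 0.5), and into 8, the largest of 74 cells in place of 118, at a resolution of 1. At 0.5, clusters 1, 2 and 4 were mostly cells of 1 pool or of a pair of pools. A cluster mostly of 1 pool may be that pool rather than a cell type, and no cluster was tested against the rest. The clusters are described by their leading genes, the 10 with the largest ratio to the other selected cells among genes detected in at least 25% of a cluster.

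Cluster 1 held 118 cells, 115 of them from pool 8, and was led by *Ear6*, *Gdf15*, a stress-induced cytokine, *Fcgr4*, an activating Fc receptor, *Ear1*, *Ifi27l2a* and *Ear2*. *Ear2* was at 2082 CPM there and detected in 91.5% of cells. Of the 6 clusters it had the highest levels of *C1qa* (1857 CPM) and *Gbp2* (348 CPM). Cluster 2 held 66 cells, 57 of them from pool 18, and was led by *S100a9*, *Nectin3*, *S100a8*, *Wfdc21*, *Ly6c2*, *Lcn2* and *Runx3*, with *Vcan* and *Il1r2* also among its 10 genes. *Ly6c2* was at 418 CPM against 21.5 in cluster 1, *Chil3* at 17353 CPM and *Ear2* at 170.2 CPM. Its median UMI count was 6400, near that of all selected cells. Cluster 4 held 45 cells, 20 from pool 6 and 15 from pool 5, and was led by *Arg1* (483 CPM), *Ctsk* (724 CPM) and *Tfrc*, the transferrin receptor. *Ear2* was at 870.4 CPM in it, *Ccl8* at 473 CPM and *Apoe* at 2827 CPM. *Arg1* and *Ear2* thus led different clusters, mostly from different pools.

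Cluster 3, with 48 cells, was spread over 10 pools, with 13 cells from pool 9, 10 from pool 12 and at most 6 from any other. It was led by *Tbc1d4*, *Ccr7*, the receptor that guides dendritic cells to lymph nodes, *Il4i1*, *Ramp3*, *Stap1*, *Tspan13*, *Dapp1* and *H2-Oa*. It had the highest class II content, with a median sum of 375 per 10000 UMIs against 125 in cluster 1 and 93.2 in cluster 4, and *Ciita* was at 142 CPM. Its *Ear2* level was 3.38 CPM, with *Ccl8* and *Arg1* at 0, *Chil3* at 20.2 CPM and *C1qa* at 67.5 CPM. The dendritic cell genes *Flt3*, a growth factor receptor (25% of cells), *Cd209a* (14.6%), *Napsa* (75%) and *Clec10a* (50%) were detected in it, *Napsa* and *Clec10a* also in every other cluster (83.3% and 45.5% in cluster 2). *Zbtb46*, *Batf3*, *Clec9a* and *Xcr1*, of conventional dendritic cells, were detected in 8.33%, 4.17%, 2.08% and 0% of its cells. Of the 6 clusters it also had the highest summed level of the plasmacytoid dendritic cell list (503 CPM against 161 to 307 CPM), with *Siglech*, a receptor of these cells, in 18.8% of its cells and in none of the others. *Flt3* and *Cd209a* were detected in 0 of the 118 cells of cluster 1, which allows a share of cells with a UMI of up to 2.54%. The cluster thus held the class II genes with next to no *Ear2*, *Ccl8* or *Arg1*, and it made up most of the selected cells of pools 9 and 12.

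Cluster 5 held 27 cells from 5 pools and was led by stromal genes, *H19*, *Ibsp*, *Cald1*, *Thbs4* and *Sparc*. Its median UMI count was 11872 and its stromal genes took a median of 2.11% of UMIs, against 4790 UMIs and 0.343% in cluster 1. Of all selected cells 16 (4.92%) were among the droplets of highest doublet score, against 10.9% of *Tyrobp* cells, and the part of droplets with more than 1 cell in cluster 5 was not tested. Cluster 6 held 21 cells, 11 of them from pool 8, and was led by the mitotic genes *Top2a*, *Ube2c* and *Cenpf*.

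**Figure D5:**
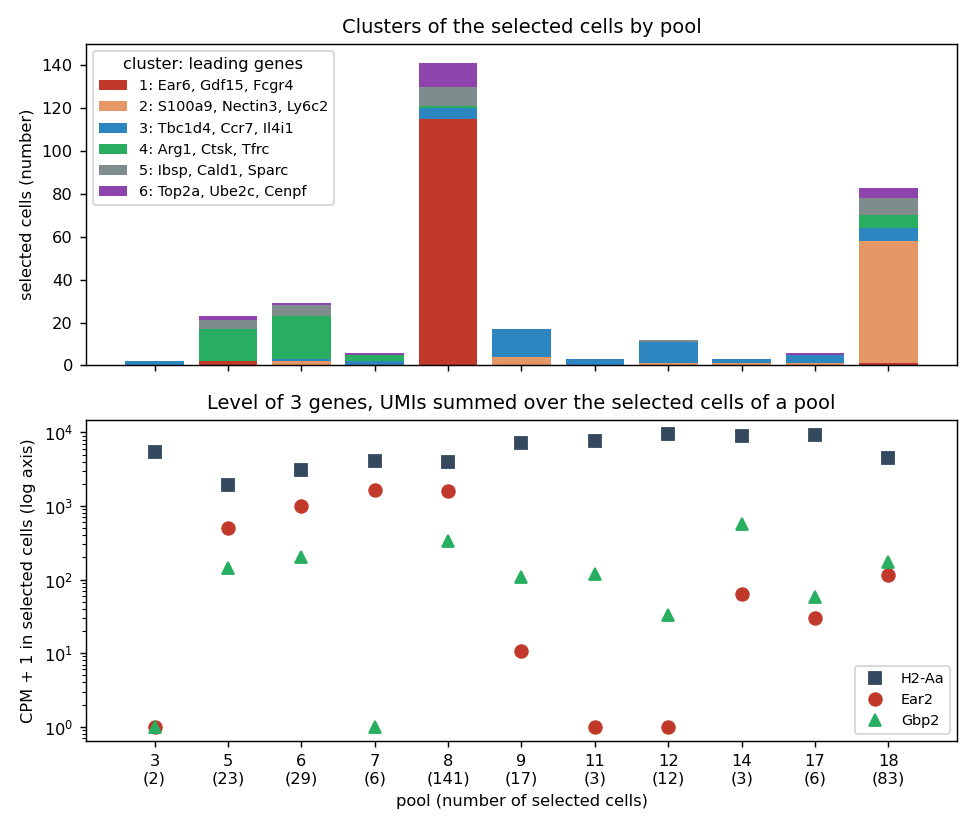
Top, number of selected cells of each cluster in the 11 pools that had any. Bottom, level of *H2-Aa*, *Ear2* and *Gbp2* in the selected cells of each pool (CPM + 1, logarithmic axis). Cluster 1 makes up most of pool 8, cluster 2 most of pool 18 and cluster 4 most of pools 5 and 6, while cluster 3 is spread over 10 pools, and *Ear2* has no UMI in pools 3, 11 and 12, which have 2, 3 and 12 selected cells.

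Within the selected cells, those with an *Ear2* UMI (194 cells, median 6383 UMIs) and those without (131 cells, median 5415 UMIs) differed along the same lines. *Ear1* was at 634 CPM in the former and 12.8 CPM in the latter, *C1qa* at 954 and 477 CPM and *Gbp2* at 275 and 127 CPM. *H2-Aa* went the other way, at 3563 and 5399 CPM. Pools differ between both sets of cells, and these values are a description.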

How the data were processed

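Single-cell RNA was captured with the 10x Genomics 3′ version 2 kit, and per the labels the deposited values are raw UMI counts per gene and barcode, made by the authors with Cell Ranger 5.0.0 on mm10. The annotation release is not given in the sources used here, and no normalization had been applied to the counts. The authors' assignment of cells to mice and removal of doublets came after these counts and are not part of them.

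Barcodes were filtered and grouped by the limits given in the report, and UMI counts were summed per pool and group. edgeR 4.0.16 (filterByExpr, TMM, quasi-likelihood test, pool as a block) was run in R 4.3.3 over pools with at least 20 cells of both groups, with Benjamini-Hochberg adjustment over all tested genes. Both groups of a pool come from the same library, which pairs them. Same-pool samples deviated together (lowest correlation 0.159 to 0.175 over the 4 comparisons). CPM values are sums scaled by the total UMIs of a group. A longer X box pattern, searched before the one given, matched the promoters of *H2-Eb1*, *H2-DMb1* and *H2-Oa* and not that of *H2-DMb2*. The 14 rule genes entered library sizes and were not tested.

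In counts simulated for the 4 comparisons with 200 genes changed by 1 on the log2 scale, 40.3% (other *Tyrobp* cells), 43.2% (resident-type), 36.8% (*Gpnmb*-type) and 25.6% (remainder) of these genes were called, and 7.99%, 5.88%, 7.07% and 9.86% of calls were false, above the nominal 5% in each.

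The selected cells were clustered in scanpy 1.11.5 (2000 variable genes without the rule genes, 20 components, 15 neighbours, Louvain resolution 0.5). Doublets were scored and not removed. Thinning drew 1500 UMIs per cell.

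Named genes were the 7 label markers and the rule genes, up to 4 genes per list with the largest called change, list genes whose role was needed, and the 10 (first comparison) or 5 (others) called genes of largest fold in each direction with the same direction in every pool and at least 50 CPM. The cells and the 24 gene lists were chosen with earlier results of these data known. Alternatives were DESeq2 1.42.0, other scaling, no count filter, no pool block, leaving out each pool, other cell limits, the other run, doublet and stromal filters and thinning. Added after seeing the data were at least 5 cells per pool and the same class II limit in both groups. Results for a few items are not reported here.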

Additional observations from a re-analysis of the deposited data

Results flagged for a closer look

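In 9 of the 86 tested genes that the text names, 1 of the 4 pools lay far from the others in the level of the selected cells (Dixon's criterion at 95%, which chance meets in about 1 in 20 groups). Pool 8 was high for *Ear6* (226 CPM), *Ccl2* (683 CPM) and the guanylate-binding protein gene *Gbp4* (109 CPM). Pool 18 was high for the monocyte and neutrophil genes *Ly6c2* (319 CPM) and *S100a9* (865 CPM), for *Csf1r* (445 CPM) and for *Csf2rb* (478 CPM). Pool 6 was high for *Vsig4* (41.1 CPM), and pool 5 for *Htr2b* (7.06 CPM), which rests on 2 UMIs. The genes of pools 8 and 18 include leading genes of the clusters that these pools fill, *Ear6* of cluster 1 and *S100a9* and *Ly6c2* of cluster 2, so they are not separate observations.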

How the results depend on the processing

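The 4 comparisons gave 717 (other *Tyrobp* cells), 1024 (resident-type), 646 (*Gpnmb*-type) and 1667 (remainder) calls. Without the pool as a replicate block they gave 114, 310, 394 and 1103. Leaving out 1 pool gave 417 to 793, 714 to 823, 247 to 516 and 1150 to 1528. Thinning to 1500 UMIs gave 209, 160, 196 and 503, with fewer genes tested. With the resident genes limited by their sum there were 384, 57 and 1017 calls against other cells, resident-type macrophages and remainder, and in the other run, with 3 pools, 463, 659 and 860. Without cells over 5% stromal UMIs there were 455 and 454 against other cells and resident-type macrophages. A class II limit of 100 gave 1249 against other cells. Against resident-type macrophages, at least 50 cells per pool gave 475, removal of the highest doublet scores 382 and the same class II limit 94. Against *Gpnmb*-type macrophages, no count filter gave 984, at least 5 cells per pool 1045 and the same class II limit 63. The cause of these shifts was not tested beyond the pools and genes left out. DESeq2 and upper-quartile scaling kept all 4 counts within 1.5 times. The share of selected cells was 1.20% at a class II limit of 100, 1.31% with the resident sum, 2.06% without stromal cells, 1.37% at 1 *Tyrobp* UMI and 2.10% at 4.

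Some named genes changed direction. Against other *Tyrobp* cells, *Ccl8*, without a call, had log2 fold changes of 0.21 without pool 5, 0.65 with at least 50 cells per pool, 0.89 at a class II limit of 100, 0.14 with the resident sum and 0.56 after thinning. *Ly6c2*, also without a call, was at 0.29 without the block and 0.58 without pool 8, and at -2.64, with a call, without pool 18. Under the same class II limit, *Il1a* (-0.15), *Cd40* (-0.16), *Gbp2* (-0.11), *Arg1* (-1.43) and *Rsad2* (-1.77) turned against resident-type macrophages, as did *Rsad2* in the other run (-0.23). *Fn1* turned there with the resident sum (0.28), without the highest doublet scores (0.30), without cells over 5% stromal UMIs (0.034), after thinning (0.25) and under the same limit (1.00). *Clec10a* and *Mrc1*, without a call there, turned with the resident sum (-0.41 and -0.55), without the highest doublet scores (-0.18 and -0.17) and, with calls, under the same limit (-1.41 and -0.95). *Clec10a* turned without pool 18 (-0.13, and 0.50 without pool 8), and *Mrc1* with at least 5 cells per pool (-0.69), without cells over 5% stromal UMIs (-0.15) and after thinning (-0.42). Against *Gpnmb*-type macrophages, *Ccl5* turned under the same limit, which left out pool 18 (-3.72), and in the other run (-0.33). It also turned without pool 18 alone (-0.94, and 2.28 with a call without pool 8). *Nos2* turned with the resident sum (0.41). *Chil3* turned against the remainder with at least 5 cells per pool (-0.96) and after thinning (-0.031). The cause was not tested. With 4 pools, of which pool 8 holds most selected cells, and 23 cells in pool 5, genes of a few UMIs per pool give no firm value.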
